A study of Homo sapiens with 8 samples.

Results

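The mRNAs of the oxidative phosphorylation subunits were followed across 8 RNA-seq libraries of HCT116, a human colon carcinoma cell line, and of an HCT116 derivative carrying the E33Q change in MED12. MED12 is a subunit of the kinase module of Mediator, the complex that links transcription factors to RNA polymerase II. The members were chosen by gene symbol alone: the 13 protein-coding genes of the mitochondrial genome, and the nuclear genes named NDUFA, NDUFB, NDUFC, NDUFS or NDUFV with a number, SDHA to SDHD, UQCR, COX4 to COX8, CYC1 and ATP5. Assembly factors named NDUFAF, pseudogenes, readthrough genes and NDUFA4L2 were left out. COX7A2L and ATP5S met the symbol rule and are counted under complexes IV and V by symbol alone. The rule found 101 of the 40295 gene IDs in the count table, of which 13 are mitochondrial and 88 nuclear. The nuclear genes comprise 37 of complex I, 4 of complex II, 10 of complex III, 17 of complex IV and 20 of complex V.

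There were 2 libraries, described as biological replicates, in each of 4 groups. The groups were knock-in cells exposed to 5 ng/ml interferon-γ (IFN-γ) for 24 h, untreated knock-in cells (0 h), wild-type HCT116 cells exposed to the same dose for 24 h, and untreated wild-type cells (0 h). The knock-in was made with CRISPR-Cas9 and is represented by a single cell line, so E33Q and any other difference of that line from its parent cannot be told apart. Untreated cells were labelled 0 h and treated cells 24 h, so IFN-γ and time in culture cannot be told apart either. All groups were total RNA with small RNAs and ribosomal RNA removed, so mitochondrial mRNAs were retained without selection for a poly(A) tail.

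Oxidative phosphorylation runs on 5 complexes of the inner mitochondrial membrane. Complex I oxidises NADH, complex II oxidises succinate, complex III passes electrons to cytochrome c, complex IV reduces oxygen, and complex V, the ATP synthase, uses the resulting proton gradient to make ATP. Complex II is built only from nuclear genes, whereas the other complexes combine nuclear subunits with subunits encoded in mitochondrial DNA. Mitochondrial DNA is transcribed by its own RNA polymerase, POLRMT, from both strands into long precursors, and the mRNAs are released when the intervening tRNAs are cut out. Nuclear subunit genes are transcribed in the nucleus, many from promoters with sites for NRF1, GABPA (an ETS factor) and YY1.

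The libraries held 20872904 to 28006202 estimated counts after rounding. Several technical measures moved with the groups. ERCC spike-in RNA made up 0.228% to 0.271% of the counts in treated libraries and 0.11% to 0.141% in untreated ones. The mean GC content of the counted transcripts was 49.37% to 49.55% in treated and 46.83% to 48.13% in untreated libraries. All 8 colon epithelial markers were detected in summed amounts of 2230 to 5030 counts per 1000000 (CPM). Plasma and B cell markers, which this line should lack, summed to 235 CPM in treated knock-in library 2, 302 CPM in untreated knock-in library 2, and 311 and 346 CPM in the untreated wild-type libraries, against at most 0.42 CPM in the other 4 libraries. MS4A1, which marks mature B cells, was at 0 throughout. The summed T cell and myeloid markers reached at most 0.319 and 0.821 CPM. Endothelial markers summed to at most 2.67 CPM, and fibroblast markers to at most 6.78 CPM with LUM at 0. In bulk RNA, fewer cells of a type and less RNA per cell cannot be told apart.

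Of the mitochondrial mRNAs, the 3 cytochrome c oxidase subunits were the most abundant per kilobase. MT-CO3 stood at 933 CPM per kb in treated knock-in, 1990 in untreated knock-in, 884 in treated wild-type and 1650 in untreated wild-type cells. MT-CO2 stood at 841, 1150, 823 and 1240 CPM per kb in the same order of groups. MT-ND6, the complex I subunit encoded on the light strand, was among the lowest on this scale, with 41.6 CPM per kb in treated knock-in, 46.7 in untreated knock-in, 57.6 in treated wild-type and 134 in untreated wild-type cells. These levels rest on 494 to 1632 counts of MT-ND6 and 16000 to 43235 counts of MT-CO3 per library.

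The shortest mitochondrial mRNAs were almost absent from the table. MT-ND4L (297 bases) and MT-ATP8 (207 bases) had 0 counts in every library, which allows at most 0.11 to 0.167 CPM per library (3 counts, counting error only). MT-ND3 (346 bases) had 0 to 22 counts per library, or at most 1.1 CPM. The next shortest, MT-ND6 (525 bases), was well covered. MT-ATP8 and MT-ATP6 both encode subunits of the ATP synthase membrane sector and are known to be carried on a common mRNA, and MT-ATP6 had 373 to 653 CPM per library. The MT-ATP8 entry is shown whole because its tail is shared with MT-ATP6 (GENCODE 29 on GRCh38, plus strand, chrM:8366-8572). Capitals mark the 46 shared bases, chrM:8527-8572.
MT-ATP8: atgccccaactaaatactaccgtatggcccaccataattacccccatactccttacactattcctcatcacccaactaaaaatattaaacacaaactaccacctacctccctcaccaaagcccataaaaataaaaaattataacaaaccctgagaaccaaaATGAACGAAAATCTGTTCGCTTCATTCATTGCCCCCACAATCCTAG
MT-ND4L and MT-ND4 likewise share 7 bases. Small RNAs were removed before library construction in all groups, and the part of that step in the missing counts was not tested. The remaining values therefore describe 10 well measured mitochondrial mRNAs, and 11 passed the filter on low counts.

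Copies of mitochondrial DNA in the nuclear genome took a small part of the summed signal. Of 394 annotated nuclear copies, 57 had any count, and together they held 3.31% as many counts as the mitochondrial mRNAs themselves (2.94% to 3.8% per library). The 3 leading copies, MTATP6P1, MTND2P28 and MTND1P23 on chromosome 1, made up 98.6% of these counts. MTATP6P1 alone had 133 and 144 CPM in treated knock-in, 117 and 204 CPM in untreated knock-in, 159 and 150 CPM in treated wild-type, and 161 and 167 CPM in untreated wild-type libraries. It is 98.5% identical to MT-ATP6, with 10 differences over 681 bases, so counts of this pair are uncertain. MT-ATP6 itself had 426 and 485 CPM in treated and 373 and 653 CPM in untreated knock-in libraries. In wild-type cells MT-ATP6 had 463 and 424 CPM in treated and 652 and 538 CPM in untreated libraries. For this mRNA the counts given to the copy were therefore not a small part. A window of 120 bases in which 4 of the differences lie is shown for both, at chrM:8599-8718 and chr1:633768-633887 (GRCh38, plus strand), with the differing bases in capitals.
MT-ATP6: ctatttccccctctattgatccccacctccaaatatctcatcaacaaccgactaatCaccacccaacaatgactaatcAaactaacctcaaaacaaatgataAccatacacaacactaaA
MTATP6P1: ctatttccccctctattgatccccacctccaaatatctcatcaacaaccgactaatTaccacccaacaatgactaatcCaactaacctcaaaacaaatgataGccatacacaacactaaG
Counted from the first base of MT-ATP6, these are C129T, A151C, A175G and A192G.

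In knock-in cells the mitochondrial mRNAs showed no common fall under IFN-γ beyond the spread between libraries, and MT-CO3 was the exception. MT-CO3 had 727 and 736 CPM in treated knock-in libraries, against 1342 and 1774 CPM in untreated knock-in libraries. The treated libraries lay below both untreated ones, and MT-CO3 fell, with a log2 fold change of -1.09 (SE 0.15, edgeR adjusted p = 0.000359). It was the single member called lower of the 11 tested, while 25.8% of all 16519 tested genes were called lower. None of the 11 was called higher by edgeR, at an unadjusted p under 0.05 or by DESeq2, while 26.4% of all tested genes were called higher. The median log2 fold change was -0.29 for the mitochondrial mRNAs and 0.12 for all tested genes.

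The untreated knock-in libraries differed from each other in these mRNAs. MT-ND4, a complex I subunit, had 845 and 895 CPM in treated knock-in libraries, against 543 and 1025 CPM in untreated ones. MT-CYB, the cytochrome b of complex III, had 111 and 116 CPM in treated and 99.4 and 214 CPM in untreated knock-in libraries. MT-CO1, the catalytic subunit of complex IV, had 1213 and 1137 CPM in treated, against 1155 and 1818 CPM in untreated knock-in libraries. For MT-ND4 and MT-CYB, both treated libraries lay between the untreated ones, and untreated library 2 was the higher. Without untreated knock-in library 1, 7 mitochondrial mRNAs were called lower, with a median of -0.52, while 21.6% of all genes were. Without untreated knock-in library 2, the median was 0.19, MT-CO3 was called lower at -0.88 and MT-ND4 higher at 0.68. Each of these fits has a lone untreated knock-in library, assumed to vary like the other groups. The sign of the group's median in knock-in cells differed between the 2 fits, and that of MT-CO3 did not.

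In wild-type cells MT-CO3 fell again and MT-ND6 fell with it. MT-CO3 had 733 and 653 CPM in treated wild-type libraries, against 1260 and 1319 CPM in untreated ones, a log2 fold change of -0.90 (SE 0.15, edgeR adjusted p = 0.00172). MT-ND6 had 18.8 and 41.6 CPM in treated, against 75.02 and 65.3 CPM in untreated wild-type libraries, a log2 fold change of -1.22 (SE 0.32, edgeR adjusted p = 0.0152). Neither mRNA overlapped between the groups, but the treated libraries differed in MT-ND6 by more than 2-fold. These were 2 of 11 called lower, against a background of 20.8% of tested genes called lower in wild-type cells. None was called higher by edgeR, at an unadjusted p under 0.05 or by DESeq2, while 17.1% of tested genes were.

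Of the other mitochondrial mRNAs of wild-type cells, MT-ND2 and MT-CO2 lay just outside the threshold. MT-ND2, a complex I subunit, had 633 and 581 CPM in treated, against 1033 and 851 CPM in untreated wild-type libraries, with no overlap (log2 fold change -0.63, SE 0.24, edgeR adjusted p = 0.0605). MT-CO2 had 544 and 581 CPM in treated, against 907 and 794 CPM in untreated wild-type libraries (log2 fold change -0.60, SE 0.22, edgeR adjusted p = 0.0601). The remaining 7 had adjusted p of 0.125 (MT-ND1) to 0.977 (MT-ND4, at -0.01). All 11 fold changes were negative, with a median of -0.60 beside 0.08 for all tested genes. Their count varied with the tool: DESeq2 called 6 lower, and its size factors within edgeR gave 4. The shares of all genes called lower at these settings are not given, so the counts are not read as results about the members. Leaving either untreated knock-in library out of the shared fit kept the median at -0.60. The MT-ND6 call was lost without treated wild-type library 1 (log2 fold change -0.76, edgeR adjusted p = 0.0644). Because the strand used in counting is not given in the sources used here, reads of MT-ND6 cannot be told apart from transcripts of the opposite strand.

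**Figure D1:**
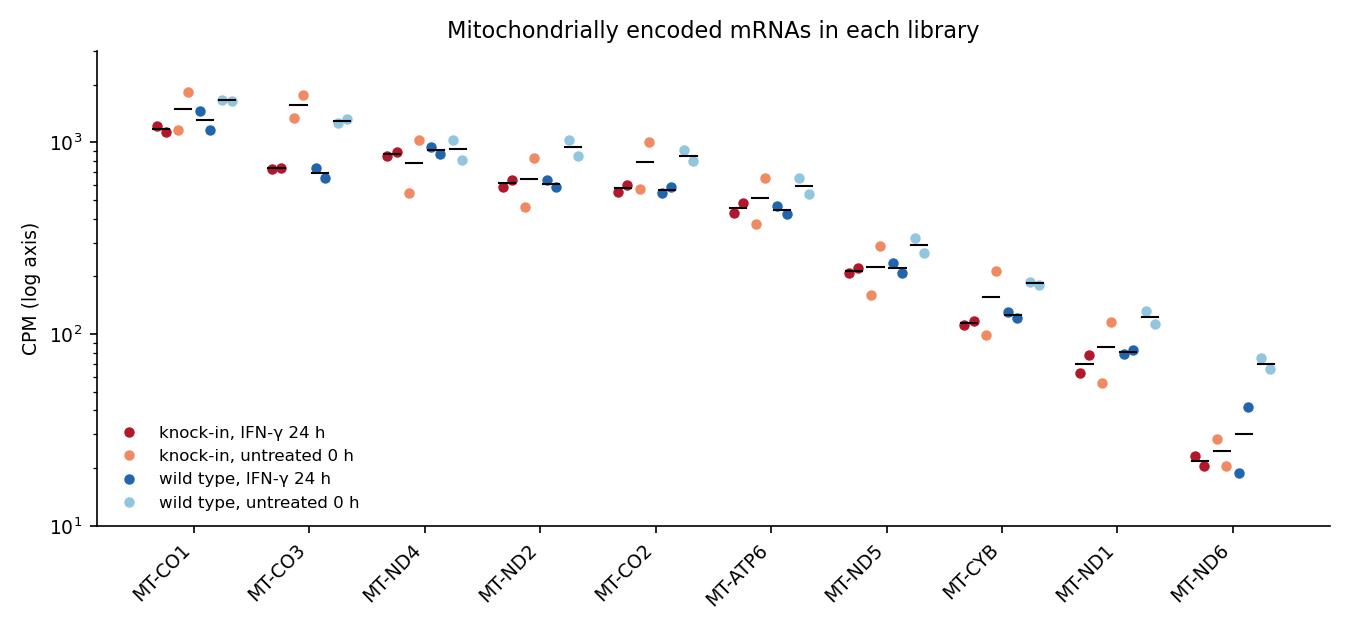
CPM of the 10 well measured mitochondrial mRNAs (log axis), ordered by mean level; each point is a library and each bar the mean of 2. MT-CO3 is lower in treated cells of both lines, at 653 to 736 CPM against 1260 to 1774 CPM, and the 2 untreated knock-in libraries lie apart for most mRNAs.

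Most nuclear subunit mRNAs fell under IFN-γ in both lines. Of 88 nuclear members, 82 passed the filter on low counts. In knock-in cells 64 were called lower and 6 higher, with a median log2 fold change of -1.10, and in wild-type cells 63 were called lower and 0 higher, with a median of -1.14. Over all tested genes, 25.8% were lower and 26.4% higher in knock-in cells (median 0.12), and 20.8% lower and 17.1% higher in wild-type cells (median 0.08). For the 0 in wild-type cells, 2 members had an unadjusted p under 0.05 in that direction and DESeq2 called 0. All 63 members called lower in wild-type cells were also called lower in knock-in cells, and 12 were called in neither line. Across the 82 genes, which are not independent replicates, the fold changes of the lines had a Spearman's rho of 0.91. For 79 of them the lines differed by less than 0.5 on the log2 scale. The quartiles of this difference were -0.09 and 0.17 for nuclear members and -0.27 and 0.37 for all tested genes. No rho over all genes is given, so the agreement is not read as particular to the members. The responses share no library.

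The share of counts from nuclear subunits was 0.72% to 0.771% in the treated libraries and 1.06% to 1.15% in the untreated libraries, with no overlap. The share from mitochondrial mRNAs was 0.519% to 0.587% in treated and 0.411% to 0.703% in untreated libraries, so here the ranges overlapped. The log2 ratio of mitochondrial to nuclear subunit counts, which does not depend on library scaling, was -0.45 and -0.47 in treated knock-in, -1.37 and -0.75 in untreated knock-in, -0.30 and -0.54 in treated wild-type, and -0.63 and -1.01 in untreated wild-type libraries. Every treated library lay above every untreated library. Group means were -0.46 ± 0.01, -1.06 ± 0.44, -0.42 ± 0.17 and -0.82 ± 0.27 in the same order of groups (SD, n = 2 each). The ratio is given as a description, with no test. Adding the nuclear copies of mitochondrial DNA to the mitochondrial sum moved the ratio to between -0.49 and -0.24 in treated and -1.33 and -0.59 in untreated libraries.

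**Figure D2:**
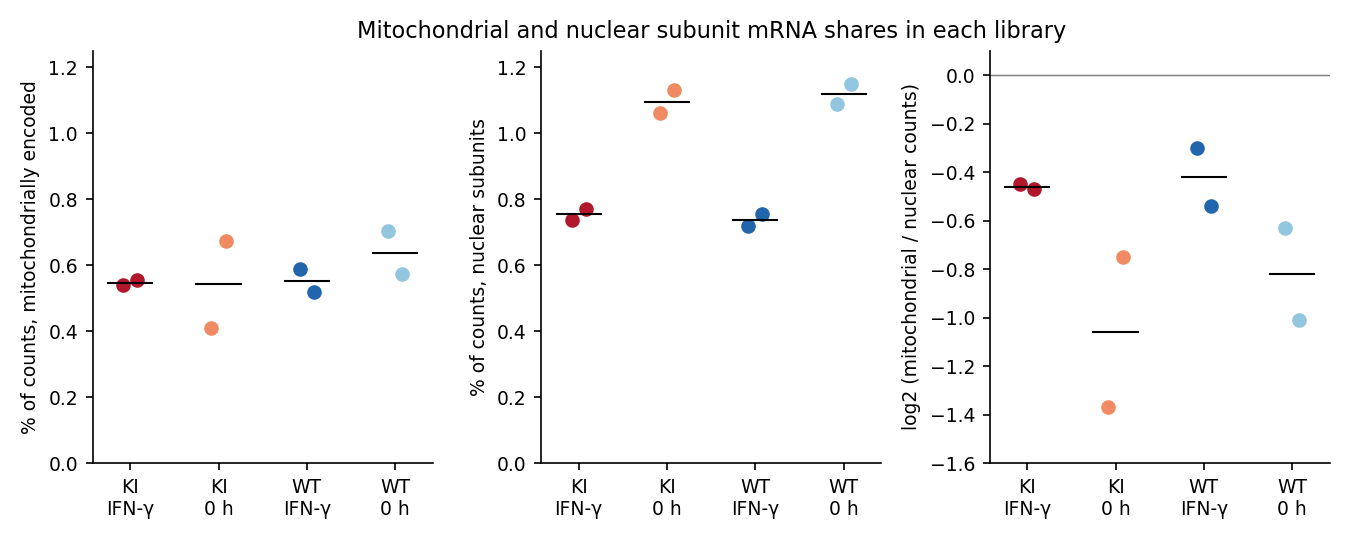
Share of all counts from mitochondrial mRNAs (left, %) and from nuclear subunits (middle, %), and the log2 ratio of the 2 (right), in each group; points are libraries and bars are means of 2. Nuclear shares are 0.72% to 0.771% in treated against 1.06% to 1.15% in untreated libraries, whereas mitochondrial shares overlap.

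Members were assigned to complexes by gene symbol and not by their place in the assembled complex, so NDUFA4 is counted in complex I. Counts by complex are read against the shares of all tested genes. These were 25.8% lower and 26.4% higher in knock-in cells, and 20.8% lower and 17.1% higher in wild-type cells. Complex I, the largest, had 27 of its 37 tested nuclear members called lower and 3 higher in knock-in cells, and 26 lower in wild-type cells. The largest fall in knock-in cells was that of NDUFB6, an accessory subunit of the membrane arm (chr9:32552999-32573184, minus strand). NDUFB6 had 9.85 and 9.69 CPM in treated and 45.01 and 36.9 CPM in untreated knock-in libraries (log2 fold change -2.07, SE 0.21, edgeR adjusted p = 0.000177). In wild-type cells it had 11.5 and 16.6 CPM in treated and 32.6 and 38.9 CPM in untreated libraries (log2 fold change -1.35, SE 0.21, edgeR adjusted p = 0.00133). Treated libraries lay below untreated ones in both lines.

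NDUFS4, an accessory subunit whose loss causes Leigh syndrome, had 26.0 and 29.3 CPM in treated and 84.0 and 78.5 CPM in untreated knock-in libraries. In wild-type cells NDUFS4 had 27.4 and 31.5 CPM in treated and 60.4 and 87.9 CPM in untreated libraries. It fell in both, with log2 fold changes of -1.55 in knock-in (edgeR adjusted p = 0.000261) and -1.33 in wild-type cells (edgeR adjusted p = 0.000959). NDUFB3, NDUFC1 and NDUFS5, further accessory subunits, fell in wild-type cells, with log2 fold changes of -1.46, -1.38 and -1.38. They fell in knock-in cells too, with -1.48, -1.28 and -1.30 in the same order. NDUFA5 fell, with -1.63 in knock-in and -1.34 in wild-type cells. NDUFB9, the most abundant complex I member per kilobase, fell, with -1.08 in knock-in and -0.86 in wild-type cells.

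Complex II had 3 of its 4 subunits called lower in both lines, and SDHA called higher in knock-in cells. SDHD, the smaller membrane anchor, had 81.8 and 78.8 CPM in treated and 245 and 208 CPM in untreated knock-in libraries (log2 fold change -1.49, SE 0.15, edgeR adjusted p = 0.000177). In wild-type cells SDHD had 76.6 and 87.6 CPM in treated and 188 and 232 CPM in untreated libraries (log2 fold change -1.35, SE 0.15, edgeR adjusted p = 0.000478). SDHB, the iron-sulfur subunit, fell, with -1.06 in knock-in and -0.80 in wild-type cells. SDHC, the other anchor, had -0.58 in each line, called in both, but not without treated library 1 of the line concerned. SDHA, the flavoprotein that oxidises succinate, had 142 and 151 CPM in treated and 94.6 and 102 CPM in untreated knock-in libraries (log2 fold change 0.58, SE 0.14, edgeR adjusted p = 0.00554). In wild-type cells SDHA had 131 and 132 CPM in treated and 115 and 93.7 CPM in untreated libraries, and its log2 fold change of 0.33 did not pass (edgeR adjusted p = 0.0795). The knock-in call was lost without treated library 2 (0.53), with ERCC scaling (0.05) and with the GC and length trend removed (0.10). The difference between the lines in this response, 0.25, did not pass either (edgeR adjusted p = 0.715).

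Complex III had 7 of 10 members called lower in each line, and 1 higher in knock-in cells. UQCRQ, a small accessory subunit, had 63.2 and 69.3 CPM in treated and 161 and 158 CPM in untreated knock-in libraries, and 58.2 and 64.0 CPM in treated and 144 and 164 CPM in untreated wild-type libraries. Its log2 fold changes were -1.27 (edgeR adjusted p = 0.000181) in knock-in and -1.33 (edgeR adjusted p = 0.000292) in wild-type cells. UQCRH, the hinge subunit, fell with -1.43 and -1.34 in knock-in and wild-type cells, but it and UQCRHL, an almost identical copy without introns that fell with -1.31 and -1.22, can share reads and are uncertain. UQCRC1, a core subunit, rose in knock-in cells, with 223 and 213 CPM in treated and 155 and 140 CPM in untreated libraries (log2 fold change 0.56, SE 0.14, edgeR adjusted p = 0.0087). In wild-type cells its log2 fold change of 0.20 did not pass (edgeR adjusted p = 0.306). With the GC and length trend removed, UQCRC1 was called lower in wild-type cells, at -0.28 (edgeR adjusted p = 0.0341). CYC1, cytochrome c1, had log2 fold changes of 0.16 and 0.10 in knock-in and wild-type cells, neither past the threshold.

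Complex IV had 10 of 12 tested nuclear members called lower in each line. COX7C, a small transmembrane subunit, had 43.9 and 50.1 CPM in treated and 152 and 142 CPM in untreated knock-in libraries (log2 fold change -1.65, SE 0.14, edgeR adjusted p = 0.000113). In wild-type cells COX7C had 49.3 and 47.3 CPM in treated and 159 and 193 CPM in untreated libraries, the largest fall of any nuclear member there (log2 fold change -1.87, SE 0.14, edgeR adjusted p = 7.18e-05). Its treated libraries were below its untreated ones throughout.

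Of the isoform pairs of complex IV, the widely expressed form was well measured and the other was at or near 0. COX4I1, the common form of subunit 4, fell, with log2 fold changes of -0.72 in knock-in and -0.75 in wild-type cells, while COX4I2, the lung form, had 0 counts in all libraries. COX7A2, the liver form, fell with -1.44 and -1.51 in the same order, and the muscle form COX7A1 was at 0. COX6A1 fell with -0.83 and -0.93, and the muscle form COX6A2 was at 0. COX8A fell with -0.94 and -1.24, and COX8C was at 0. COX6B1 fell with -1.20 and -1.30, and the testis form COX6B2 stood at 0.701 to 1.57 CPM, with neither response past the threshold. COX7B2 was at 0 as well, and together with ATP5MGL of complex V, at most 0.287 CPM, these made up the 6 nuclear members that were not tested.

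Complex V had 17 of 19 tested members called lower in each line and 1 higher in knock-in cells. ATP5MD, a small subunit of the membrane sector, had 64.5 and 57.4 CPM in treated and 206 and 189 CPM in untreated knock-in libraries (log2 fold change -1.70, SE 0.15, edgeR adjusted p = 0.00013). In wild-type cells ATP5MD had 54.9 and 56.2 CPM in treated and 158 and 203 CPM in untreated libraries (log2 fold change -1.70, SE 0.15, edgeR adjusted p = 0.000183). ATP5F1C, the rotor shaft gamma subunit, fell, with -1.63 in knock-in and -1.37 in wild-type cells. ATP5F1B, the catalytic beta subunit and the most abundant nuclear member per kilobase, had -0.59 and -0.51, called in both lines, but not without treated knock-in library 1, nor in wild-type cells without either treated library. ATP5IF1, the inhibitor that stops the synthase running backwards, fell with -1.10 and -1.04, though its counts are shared with another gene ID.

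ATP5F1D, the delta subunit of the ATP synthase rotor, rose in knock-in cells. It had 49.3 and 52.7 CPM in treated and 31.0 and 26.3 CPM in untreated knock-in libraries (log2 fold change 0.83, SE 0.19, edgeR adjusted p = 0.0045). In wild-type cells ATP5F1D had 57.6 and 62.0 CPM in treated and 72.4 and 50 CPM in untreated libraries, which overlapped (log2 fold change -0.03, edgeR adjusted p = 0.905). The difference between the responses was 0.87 (SE 0.26) and did not pass (edgeR adjusted p = 0.688). NDUFS8 and NDUFS7, iron-sulfur subunits of complex I, and NDUFV1, its NADH-binding flavoprotein, also rose in knock-in cells, by 0.74, 0.69 and 0.54 on the log2 scale. With SDHA and UQCRC1 these were the 6 risers, and leaving out 1 library ended the call of each except ATP5F1D. NDUFS7 lost it without untreated library 2 or either treated knock-in library, and NDUFS8 without untreated or treated knock-in library 1. NDUFV1 lost it without any of the 4 knock-in libraries, SDHA without treated library 2, and UQCRC1 without untreated library 2 or treated library 1. In wild-type cells 4 of the 6 were called higher once untreated library 1 was left out, namely NDUFS8 (0.74), NDUFS7 (0.66), NDUFV1 (0.53) and SDHA (0.40).

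**Figure D3:**
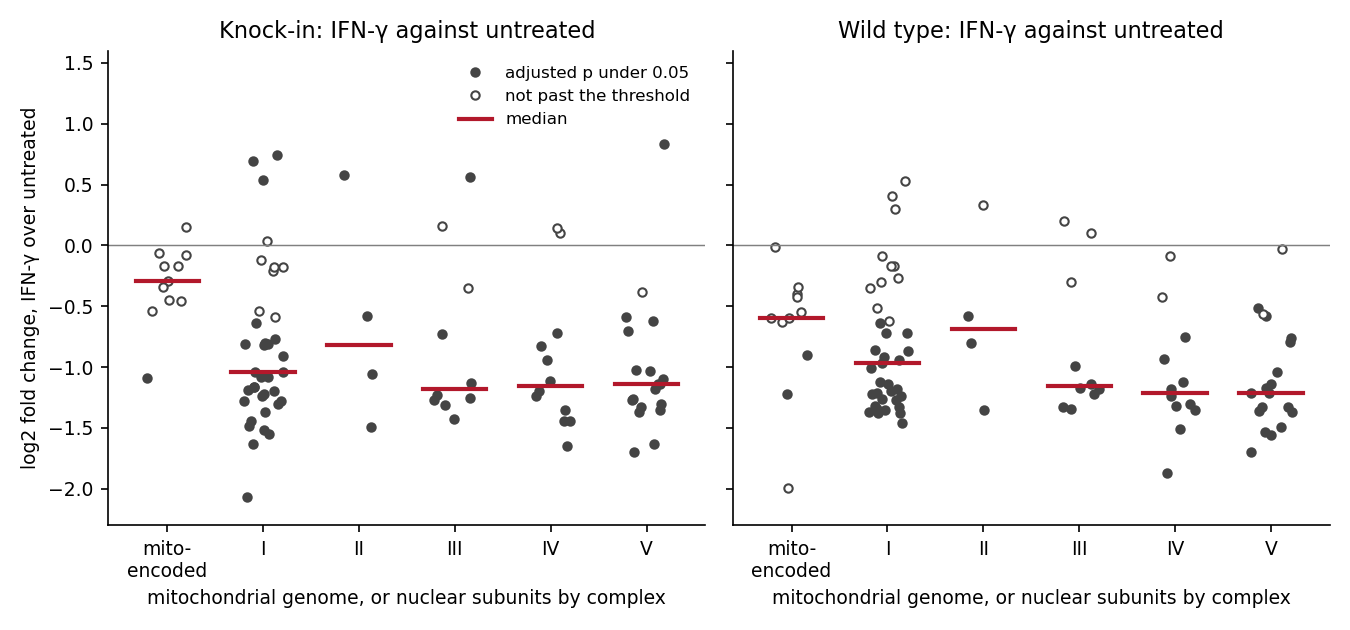
Log2 fold change of IFN-γ-treated over untreated cells for the tested members, in knock-in cells (left) and wild-type cells (right), by mitochondrial genome or nuclear complex; filled points passed an adjusted p of 0.05 (edgeR) and red bars are medians. Nuclear medians lie between -1.21 and -0.69 in the 5 complexes, and the mitochondrial medians are -0.29 and -0.60.

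Subunits of the catalytic core, most of them carrying redox centres or catalytic sites, were set beside all other nuclear members. SDHC, SDHD and UQCRC1 were placed among the others. The division was made after values were seen and so is given with no test. Among 13 such members (7 of complex I, SDHA, SDHB, CYC1, UQCRFS1, ATP5F1A and ATP5F1B), 7 were called lower and 4 higher in knock-in cells, with a median of -0.59, against 57 lower and 2 higher among the other 69, with a median of -1.16. In wild-type cells the medians were -0.51 and -1.18. These counts and medians are as fitted. With the GC and length trend removed, none of the 4 core risers was called in knock-in cells. NDUFS8 stood at 0.29, SDHA at 0.10, NDUFV1 at 0.09 and NDUFS7 at -0.05, and CYC1 was called lower at -0.53. The medians of this division at that setting are not given. NDUFV2, a flavoprotein subunit, was among those that fell, with -1.22 in knock-in and -1.14 in wild-type cells.

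**Figure D4:**
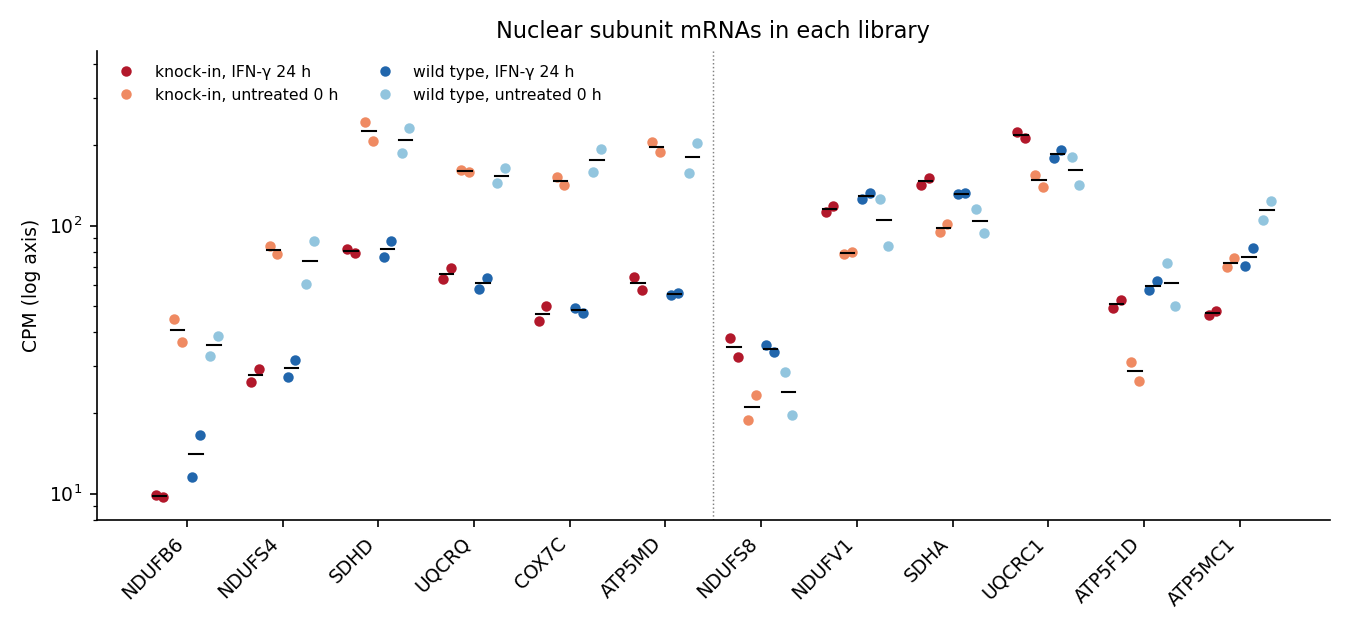
CPM of 12 nuclear members (log axis); points are libraries and bars are means of 2. Members left of the dotted line fell in both lines (NDUFB6 9.69 and 9.85 against 36.9 and 45.01 CPM in knock-in libraries), and those to its right include risers of knock-in cells and ATP5MC1, which differs between the lines.

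GC content moved with the response. Across the 82 nuclear members, GC content and log2 fold change had a Spearman's rho of 0.69 in knock-in and 0.61 in wild-type cells, and across the 15270 tested genes with a GC value the rho was 0.64 and 0.49. The 20 members under 45% GC had a median of -1.39 in knock-in cells and the 21 members at 55% GC or more a median of -0.59. When the dependence of counts on GC content and transcript length was taken out of each library, 62 nuclear members were called lower and 1 higher in knock-in cells, with a median of -0.65, and 62 lower and 1 higher in wild-type cells, with a median of -0.69. Over all tested genes, 16.7% were then called lower and 17.3% higher in knock-in cells, and 13.9% lower and 14.2% higher in wild-type cells. Of the lower calls among nuclear members, 7 were lost and 5 gained in knock-in cells, and 5 lost and 4 gained in wild-type cells. The 1 higher was NDUFA9, a complex I accessory subunit, at 0.50 in knock-in and 0.47 in wild-type cells. All 6 risers of knock-in cells lost their call under this setting. NDUFS8 (0.29), ATP5F1D (0.24), SDHA (0.10) and NDUFV1 (0.09) kept a positive sign, and UQCRC1 (-0.24) and NDUFS7 (-0.05) did not. NDUFA5 also lost its call, at -0.11 in knock-in and -0.19 in wild-type cells, as did SDHC (-0.22 in each) and, in wild-type cells, SDHB (-0.26), while SDHD (-1.06 and -0.99) and COX7C (-0.69 and -1.10) kept theirs. CYC1 turned to -0.53 in knock-in cells and was then called lower (edgeR adjusted p = 0.00575), and stood at -0.28 in wild-type cells.

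The mitochondrial mRNAs, which have 40.2% to 47.7% GC, also shifted upwards under the same setting. Their median became 0.41 in knock-in cells, with MT-ND4 (0.85) and MT-ND2 (0.77) called higher and MT-CO3 lower at -0.49 (edgeR adjusted p = 0.0127). In wild-type cells the median became -0.09, with MT-CO3 called lower at -0.41 (edgeR adjusted p = 0.0325) and MT-ND6 no longer called at -0.53. The trend is fitted on all genes, and whether it applies to RNA made inside mitochondria was not tested.

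**Figure D5:**
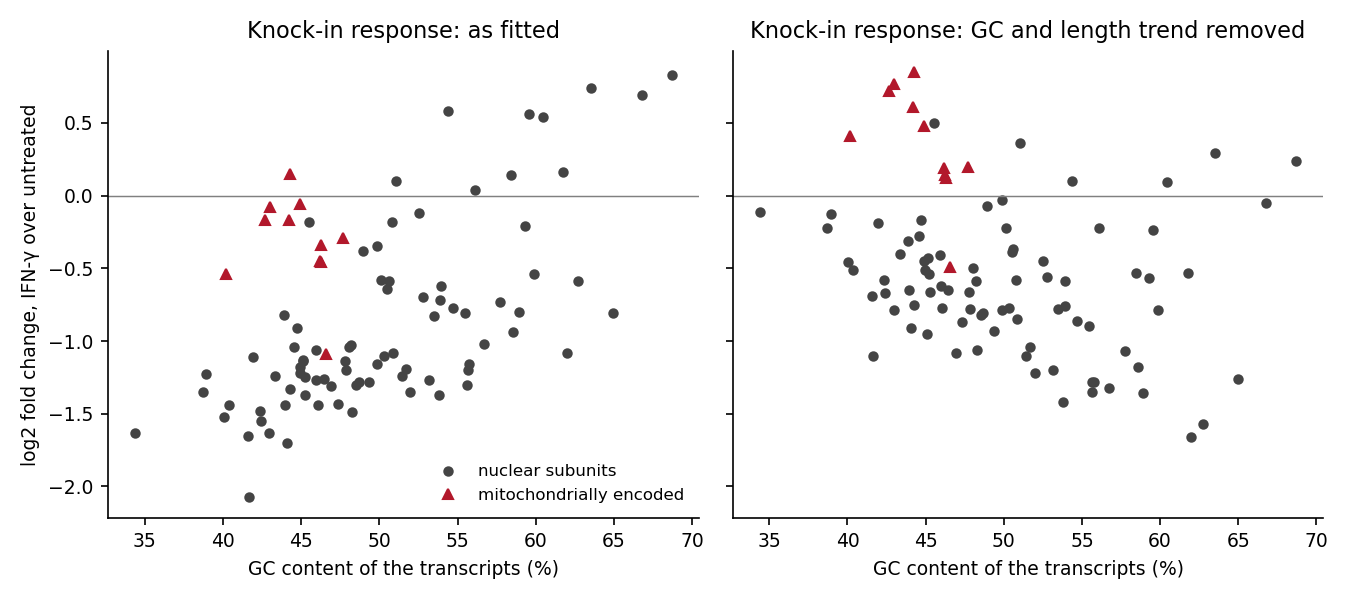
Log2 fold change in knock-in cells against transcript GC content (%), as fitted (left) and with the trend on GC content and length removed (right); each point is a member. Nuclear members rise with GC content on the left (rho 0.69) and lie mostly below 0 on the right (median -0.65), while mitochondrial mRNAs lie mostly above 0 there (median 0.41).

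Scaling to the ERCC spike-ins shifted the fold changes of both responses downwards. The median of all tested genes moved from 0.12 to -0.41 in the knock-in response and from 0.08 to -0.72 in the wild-type response. Calls over all genes became 616 higher and 5476 lower in knock-in cells (4356 and 4257 with TMM) and 233 higher and 6745 lower in wild-type cells (2821 and 3435 with TMM). Nuclear members had medians of -1.63 and -1.93 on this scale, below those of all genes, with 71 and 77 called lower and 0 called higher, since the 6 risers lost their call (SDHA 0.05, ATP5F1D 0.30). Mitochondrial mRNAs had medians of -0.82 and -1.41, with 4 and 9 of 11 called lower. MT-CO3 stood at -1.62 and -1.68.

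Plasma cell markers were high in library 2 of each knock-in group, and in both untreated wild-type libraries. Without both knock-in replicate 2 libraries, 48 nuclear members were called lower and 0 higher in knock-in cells, with a median of -1.05, and MT-CO3 was the 1 mitochondrial mRNA called. Over all genes 2232 of 17228 were called lower and 1291 (7.49%) higher at this setting, which leaves 1 library in each knock-in group and takes its spread from the wild-type groups. In wild-type cells the markers separate the groups and cannot be told apart from IFN-γ.

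Differences between the lines were few. In untreated cells, knock-in against wild-type, 3 nuclear members and 1 mitochondrial mRNA were called lower and 1 nuclear member higher, where 4.17% of all tested genes were called lower and 4.26% higher. MT-ND6 had 28.5 and 20.6 CPM in untreated knock-in and 75.02 and 65.3 CPM in untreated wild-type libraries (log2 fold change -1.52, SE 0.32, edgeR adjusted p = 0.0232), with no overlap. ATP5F1D had 31.0 and 26.3 CPM in knock-in and 72.4 and 50 CPM in wild-type libraries (log2 fold change -1.10, SE 0.19, edgeR adjusted p = 0.00995). These comparisons share their untreated libraries with the responses above. COX5A, a complex IV subunit, was lower at -0.73, and NDUFA13, a complex I subunit also known as GRIM-19, was higher at 0.58. GC content and the untreated line difference had a Spearman's rho of -0.36 across all tested genes and -0.31 across nuclear members. With the GC and length trend removed, ATP5F1D stood at -0.71, MT-ND6 at -1.72, COX5A at -0.77 and NDUFA13 at 0.78, all still called.

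ATP5MC1, which encodes subunit c of the ATP synthase rotor ring, was the nuclear member lower in knock-in cells in both states. It had 70.1 and 75.5 CPM in untreated knock-in and 105 and 124 CPM in untreated wild-type libraries (log2 fold change -0.66, SE 0.14, edgeR adjusted p = 0.0241). Under IFN-γ it had 46.6 and 47.9 CPM in knock-in and 71.0 and 82.4 CPM in wild-type libraries (log2 fold change -0.70, edgeR adjusted p = 0.0318). It was the single member called under IFN-γ, where 1.28% of tested genes were called lower and 1.63% higher. For the 0 mitochondrial calls there, edgeR at an unadjusted p under 0.05 and DESeq2 also gave 0. ATP5MC2 and ATP5MC3, which encode the same mature subunit c, had untreated line differences of 0.07 and -0.02.

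Each of these line calls depended on single libraries. The MT-ND6 call was lost without either untreated knock-in library or without untreated wild-type library 1, with adjusted p of 0.0573 to 0.148 (edgeR), and its log2 fold change stayed between -1.77 and -1.30. ATP5F1D lost its call without untreated knock-in library 2 (-0.98, edgeR adjusted p = 0.0832). ATP5MC1 lost it in untreated cells without any 1 knock-in library or treated wild-type library 2 (-0.71 to -0.60), and under IFN-γ without any 1 library other than an untreated wild-type one (-0.80 to -0.59). COX5A and NDUFA13 lost theirs without any 1 library other than untreated wild-type library 2. Without untreated wild-type library 2, whose counts had a mean GC content of 46.99% beside 48.13% in library 1, 19 nuclear members were called between the untreated lines instead of 4. That is 23.2% of those tested, while 27.7% of all genes were called at this setting, so the count is not a result about the members. The mitochondrial median between the untreated lines was -0.76 without untreated knock-in library 2 and 0.14 without untreated knock-in library 1. Each of these fits has a lone untreated knock-in library. Mitochondrial mRNAs made up 0.411% of the counts in library 1 and 0.673% in library 2.

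The difference in response between the lines was called for 0 of the 93 tested members and for 0.0% of all 16519 genes by edgeR. At an unadjusted p under 0.05 there were 4 members and 1119 genes, and DESeq2 called 0 members and 4 genes. The largest values among nuclear members were 0.87 for ATP5F1D and -0.72 (SE 0.29) for NDUFB6, and MT-ND6 had 1.05 (SE 0.45). With standard errors of this size, smaller differences between the lines were not detectable.

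Promoter sequences were available from RefSeq (GRCh38.p14) for 69 of the 88 nuclear members, as windows from 250 bases before to 50 bases after the start. An NRF1 core with its middle base left free, read on either strand as were the others, was in 24.6% of these windows and in 6.98% of those of all 27305 genes. An ETS core (CCGGAAG) was in 30.4% against 12.2%, a YY1 core (AAGATGGC) in 17.4% against 3.52%, and CCAAT in 37.7% against 39.7%. At least 1 of the NRF1, ETS and YY1 cores was in 59.4% of the member windows and 20.0% of all windows. In knock-in cells the median log2 fold changes were -0.98 with and -1.13 without the NRF1 core, -1.14 with and -1.10 without ETS, and -1.11 with and -1.10 without YY1. In wild-type cells they were -1.16 with and -1.16 without NRF1, -1.24 with and -1.12 without ETS, and -0.98 with and -1.17 without YY1.

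Windows are shown with these cores in capitals, a pair from members that fell and a pair from members that rose in knock-in cells. SDHD (chr11:112086623-112086922, plus strand) holds an NRF1 and an ETS core, and NDUFS4 (chr5:53560389-53560688, plus strand) a YY1 core.
SDHD: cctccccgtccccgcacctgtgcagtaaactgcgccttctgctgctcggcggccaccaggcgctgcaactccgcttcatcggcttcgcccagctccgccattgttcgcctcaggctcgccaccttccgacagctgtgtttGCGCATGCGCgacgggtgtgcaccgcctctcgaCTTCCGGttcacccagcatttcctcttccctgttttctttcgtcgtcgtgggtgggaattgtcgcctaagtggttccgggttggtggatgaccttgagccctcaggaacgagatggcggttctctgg
NDUFS4: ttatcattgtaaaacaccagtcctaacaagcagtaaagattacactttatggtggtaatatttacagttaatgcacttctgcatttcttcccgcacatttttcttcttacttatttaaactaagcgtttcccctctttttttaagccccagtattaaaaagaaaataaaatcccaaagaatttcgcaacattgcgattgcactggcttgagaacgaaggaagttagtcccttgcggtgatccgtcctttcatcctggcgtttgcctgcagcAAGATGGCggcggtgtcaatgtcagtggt
SDHA (chr5:218070-218369, plus strand) holds 4 NRF1 cores, and UQCRC1 (chr3:48609597-48609896, minus strand) an NRF1 and a YY1 core.
SDHA: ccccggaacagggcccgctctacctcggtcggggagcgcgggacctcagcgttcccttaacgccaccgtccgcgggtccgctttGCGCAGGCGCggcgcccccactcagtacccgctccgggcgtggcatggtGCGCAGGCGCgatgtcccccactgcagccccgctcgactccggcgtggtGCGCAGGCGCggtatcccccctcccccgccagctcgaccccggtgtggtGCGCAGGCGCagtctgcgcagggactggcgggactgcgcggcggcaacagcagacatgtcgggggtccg
UQCRC1: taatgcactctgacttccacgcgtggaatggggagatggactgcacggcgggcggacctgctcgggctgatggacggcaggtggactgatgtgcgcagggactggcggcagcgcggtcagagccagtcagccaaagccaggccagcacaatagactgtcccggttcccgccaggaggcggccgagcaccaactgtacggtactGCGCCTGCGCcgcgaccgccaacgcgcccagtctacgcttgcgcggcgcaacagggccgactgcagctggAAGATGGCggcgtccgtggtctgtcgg
The rise of SDHA and UQCRC1 was not called with the GC and length trend removed. A match is a string of letters and not evidence of binding.

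Genes that serve the same complexes were read from lists chosen with earlier results of these data known. Their counts are read against the shares of all tested genes, 25.8% lower and 26.4% higher in knock-in and 20.8% lower and 17.1% higher in wild-type cells. With the GC and length trend removed, these shares were 16.7% and 17.3% in knock-in and 13.9% and 14.2% in wild-type cells. Of 52 assembly factors, 32 were called lower and 7 higher in knock-in cells and 31 lower and 1 higher in wild-type cells, with medians of -0.67 and -0.64 (24 lower and 5 higher, median -0.35, and 24 lower and 1 higher, median -0.39, with the GC and length trend removed). Of 78 mitochondrial ribosomal proteins, which translate the 13 mitochondrial mRNAs, 47 were lower and 7 higher in knock-in and 50 lower and 1 higher in wild-type cells, with medians of -0.67 and -0.78. COX16, an assembly factor of complex IV, fell with log2 fold changes of -1.48 and -2.57, and MRPL1, a large subunit protein, with -1.69 in knock-in cells. With the trend removed COX16 stood at -0.43 in knock-in cells, not called, and -1.76 in wild-type cells. The ribosomal list and MRPL1 are given as fitted only, so how much of their fall remains at that setting is not shown.

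Of 17 genes of mitochondrial DNA transcription and replication, 10 fell and 5 rose in knock-in cells, and 10 fell and 3 rose in wild-type cells. With the GC and length trend removed, 5 fell and 5 rose in knock-in cells (median -0.08, against -1.04 as fitted) and 5 fell and 4 rose in wild-type cells (median -0.14, against -0.85). POLRMT, the mitochondrial RNA polymerase, had 149 and 148 CPM in treated and 61.7 and 46.0 CPM in untreated knock-in libraries, and 149 and 151 CPM in treated and 99.8 and 67.8 CPM in untreated wild-type libraries. It rose by 1.46 (edgeR adjusted p = 0.000397) and 0.84 (edgeR adjusted p = 0.00925) on the log2 scale. TFAM, which packages mitochondrial DNA and starts its transcription with TFB2M, had 63.2 and 66.9 CPM in treated and 188 and 161 CPM in untreated knock-in libraries, and 80.5 and 80.5 CPM in treated and 139 and 200 CPM in untreated wild-type libraries. TFAM fell, with log2 fold changes of -1.43 and -1.07, and so did TFB2M, with -1.04 and -1.13. With the GC and length trend removed, POLRMT remained called at 0.74 and 0.51, and TFAM did not, at -0.24 and -0.14. TFB2M was then called in wild-type cells (-0.52) and not in knock-in cells (-0.22). With ERCC scaling POLRMT stood at 0.93 in knock-in cells, called, and at 0.01 in wild-type cells.

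Of 18 genes of mitochondrial RNA handling, 13 fell and 4 rose in knock-in and 12 fell and 1 rose in wild-type cells (11 and 2, and 7 and 1, with the GC and length trend removed). LRPPRC, which stabilises mitochondrial mRNAs, fell with -0.91 and -0.77, and FASTKD1 with -1.58 and -1.63. Both are given as fitted only, without the trend removed. Among 11 regulators of mitochondrial biogenesis, 2 fell and 5 rose in knock-in cells, and 2 fell and 3 rose in wild-type cells. With ERCC scaling 5 fell and 2 rose in knock-in cells, and 5 fell and 0 rose in wild-type cells. Of all tested genes, 33.1% were lower and 3.73% higher in knock-in cells on that scale, and 40.8% lower and 1.41% higher in wild-type cells. PPRC1 and PPARGC1B, coactivators of the PGC-1 family, rose by 1.83 and 1.85 in knock-in and by 1.12 and 1.16 in wild-type cells. GABPA fell with -1.23 and -0.88, and NRF1 had log2 fold changes of -0.11 and 0.11, neither past the threshold. With the GC and length trend removed, PPRC1 stood at 0.89 and PPARGC1B at 0.84 in knock-in cells, both called, and at 0.47 and 0.51 in wild-type cells, where neither was, and GABPA at -0.13 and -0.14 was not called. ESRRA, an orphan nuclear receptor, rose by 0.65 in knock-in cells (-0.15 with the trend removed). It was lower in untreated knock-in than in untreated wild-type cells, at -0.88 as fitted. PPARGC1A, the best known coactivator, had 0.0366 and 1.32 CPM in treated and 0 and 1.19 CPM in untreated knock-in libraries, and 0.0763 and 0.204 CPM in treated and 1.24 and 1.90 CPM in untreated wild-type libraries. It was above 1 CPM in the 4 libraries with plasma cell markers and in no other, and the part of those cells in it was not tested.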

How the data were processed

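RNA of 8 HCT116 libraries, 2 per group, was read from the deposited table of estimated counts per Ensembl gene. Per the submitters' processing notes, the authors used Trimmomatic and kallisto with GRCh38, with no versions given; strand use and the annotation release were not given. Per the labels' protocols, small RNAs and ribosomal RNA were removed before library construction. Kallisto divides reads among similar transcripts, so members with near copies are uncertain. NDUFA6, NDUFA10, NDUFS1, UQCRC2, NDUFS3 and ATP5IF1 share all counts with another gene ID.

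Counts were rounded, named with GENCODE 29 (35583 of 40295 IDs) and fitted in R 4.3.3 with edgeR 4.0.16: filterByExpr with a minimum count of 10, TMM scaling, and the quasi-likelihood F test of 1 model over the 4 groups, adjusted by Benjamini-Hochberg over 16519 tested genes. A gene was called at an adjusted p under 0.05. CPM are per 1000000 TMM-scaled counts. The ERCC rows (63) were kept out of library totals. GC content and length were taken from the annotated transcripts and their trend removed by loess with a span of 0.3. DESeq2 1.42.0 was an alternative, with other scaling, no filter, a replicate block and single libraries left out. The fit was tested on simulated data. Depth was 20872904 to 28006202 counts per library.

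Named were the mitochondrial mRNAs, per complex the 3 nuclear members with the largest change in each comparison (if averaging 5 CPM or more in either group), the most abundant per kilobase, isoform pairs and regulators. NDUFS7, NDUFS8, NDUFV1, NDUFA9, NDUFV2, the other subunit c genes, COX7B2, ATP5MGL and single genes named outside that rule were chosen after their values were seen. Members and lists were chosen with earlier results of these data known. P-values measure only the spread between replicates called biological, whose origin the labels do not describe further.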

Additional observations from a re-analysis of the deposited data

How the results depend on the processing

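Across 17 alternative settings, the 142 member results that passed the threshold (73 symbols) gave 2284 values with the direction and call kept, 126 with the direction kept and the call lost, and 4 with the sign turned, which were NDUFS7 (-0.05, and -0.04 with the replicate block) and UQCRC1 (-0.24 and -0.23) in knock-in cells with the GC and length trend removed. Members that had not passed are outside this tally. Of these, CYC1 (-0.53), MT-ND2 (0.77) and NDUFA9 (0.50) turned sign and were called in knock-in cells at that setting. In wild-type cells NDUFA9 (0.47) and UQCRC1 (-0.28, from 0.20 as fitted) did so. The number of nuclear members called was 70 in knock-in and 63 in wild-type cells, and leaving out 1 library gave 63 to 72 and 57 to 70. The precision is limited by 2 libraries per group.

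With ERCC scaling, the number of mitochondrial mRNAs called was 4 in knock-in and 9 in wild-type cells, with medians of -0.82 and -1.41, and the nuclear medians were -1.63 and -1.93. Between untreated lines it gave a mitochondrial median of -0.58, a nuclear median of -0.27 and 2 nuclear calls. Those calls were 2.44% of the nuclear members tested, beside 4.04% of all genes. Between treated lines ERCC scaling gave 0 nuclear calls, and for the response difference a nuclear median of 0.25. DESeq2 called 2 and 6 mitochondrial mRNAs in knock-in and wild-type cells, with a nuclear median of -1.17 in knock-in cells, and its size factors in edgeR gave 4 mitochondrial calls in wild-type cells and the same nuclear median of -1.17. Without a filter on low counts, mitochondrial calls were 3 in knock-in cells, 8 in wild-type cells and 3 between untreated lines. The response difference was then called for 1 mitochondrial mRNA, MT-ND6, and 1 nuclear member, ATP5F1D (0.87). The shares of all genes called with DESeq2, its size factors or no filter are not given beside these counts. Those counts are therefore not read as results about the members.

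With the GC and length trend removed, 3 mitochondrial mRNAs were called in knock-in cells (median 0.41) and 1 in wild-type cells (median -0.09). The nuclear medians were -0.65 and -0.69. Between treated lines 2 nuclear members were called, and between untreated lines 10. The latter is 12.2% of those tested, beside 14.3% of all genes, so that count is not a result about the members. For the 2 between treated lines the share of all genes is not given, so they are not read as such a result. Leaving out both knock-in replicate 2 libraries left 1 library in each knock-in group. The mitochondrial median was then 0.16 in knock-in cells, -0.60 in wild-type cells, -0.75 between untreated lines and 0.71 for the response difference.

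Leaving out 1 library at a time, the mitochondrial median was -0.52 to 0.19 in knock-in cells, -0.69 to -0.57 in wild-type cells, -0.76 to 0.14 between untreated lines, -0.08 to 0.00 between treated lines and -0.13 to 0.75 for the response difference. Mitochondrial calls were 1 to 7 in each response and 0 to 4 between untreated lines. The nuclear median was -1.18 to -1.03 in knock-in cells, -1.35 to -0.95 in wild-type cells, -0.08 to 0.17 and -0.05 to 0.06 between untreated and treated lines, and -0.08 to 0.10 for the response difference. Nuclear calls were 0 to 19 between untreated and 0 to 2 between treated lines. The share of all genes called moved between these fits too, so the counts are not read as results about the members. The cause of these shifts was not tested.

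Groups share replicate numbers 1 and 2, which the labels do not tie to a day or batch; deviations of same-numbered libraries correlated at 0.031 to 0.262. With the replicate block, 1 mitochondrial and 70 nuclear members were called in knock-in cells, and 3 and 63 in wild-type cells. With the block and the trend removal together, the mitochondrial calls and medians were 3 and 0.45 in knock-in and 1 and -0.10 in wild-type cells. The nuclear medians were then -0.65 and -0.69, and 10 nuclear members were called between untreated lines. The shares of all genes with the replicate block, alone or with the trend removal, are not given. The counts under both settings are therefore not read as results about the members.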
